A study of Mus musculus with 18 samples.

Results

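The genes described are 10 that mark the fibroblasts of the brain's coverings or build their matrix: Col1a1, Col1a2, Col3a1, Fmod, Aebp1, Dcn, Lum, Ogn, Igf2 and Igfbp2. They were taken as every probe set whose only gene symbol in the platform annotation is one of these names, which gave 24 probe sets of 45037 that are not array controls. Of the 24, 19 were bright enough to pass the filter on low values and are among 27022 probe sets tested, and each of the 10 genes has at least 1 of them. The study set mice lacking Ppt1, labelled knockout, against wild-type mice aged 3, 5 or 8 months, with total RNA of each of 18 samples on 1 Affymetrix mouse array and 3 samples in each of the 6 groups. Each group held 1 male and 2 females, except the 8-month knockout group, which held 2 males and 1 female. The missing gene makes a lysosomal thioesterase that takes palmitate off proteins, and its loss causes a childhood neurodegenerative storage disease. No source used here gives the knockout allele, the strain or whether each sample came from its own mouse, so the p-values below cover sample-to-sample spread, which may be technical. The labels name brain and cochlea together as the source of all samples. Genes of neurons and oligodendrocytes were bright, with Snap25 at 8933 ± 393 in the 9 wild-type and 8281 ± 460.4 in the 9 knockout arrays (signal, mean ± SD) and Mbp at 10905 ± 750.3 in the 9 wild-type and 11406 ± 1133 in the 9 knockout arrays, whereas 5 of 18 measured markers of bone, cartilage and inner ear passed the filter.

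The meninges, the choroid plexus stroma and the walls of larger brain vessels hold fibroblasts that secrete a collagen-rich matrix, which neurons and glia hardly make. In that matrix the fibrillar collagens form the fibrils, small leucine-rich proteoglycans bind the fibrils and set their diameter and spacing, and the same fibroblasts are a main source of insulin-like growth factor 2 in the adult brain. In whole-tissue RNA, a change in the number of such cells and a change in the RNA of each cell cannot be told apart.

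The start sites of 7 of the 10 genes are in the RefSeq promoter table of GRCm38.p6, and those of Col1a1, Dcn and Lum are not. The 250 bases before the start are shown for 4 genes that were higher in the knockout at 8 months, and for Col3a1, which did not pass at that age. Capitals mark matches on either strand to 4 motifs: the TATA box (TATAAA), the CCAAT box (the letters CCAAT), the GC box (GGGCGG) and the Smad core (CAGAC, the core bound by Smad proteins, the messengers of TGF-beta). Each window lies on the + strand, at chr1:134037004-134037253 for Fmod, chr11:5861616-5861865 for Aebp1, chr6:4505368-4505617 for Col1a2, chr13:49607765-49608014 for Ogn and chr1:45311288-45311537 for Col3a1.
Fmod: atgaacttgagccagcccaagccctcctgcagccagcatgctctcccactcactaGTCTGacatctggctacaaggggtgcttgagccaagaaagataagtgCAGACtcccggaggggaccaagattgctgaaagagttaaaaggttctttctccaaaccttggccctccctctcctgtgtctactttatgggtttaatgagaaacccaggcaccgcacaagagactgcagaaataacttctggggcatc
Aebp1: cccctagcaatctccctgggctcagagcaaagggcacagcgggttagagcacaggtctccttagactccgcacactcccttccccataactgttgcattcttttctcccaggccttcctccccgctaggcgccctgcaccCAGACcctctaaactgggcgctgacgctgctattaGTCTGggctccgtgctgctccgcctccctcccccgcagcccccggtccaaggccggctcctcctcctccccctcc
Col1a2: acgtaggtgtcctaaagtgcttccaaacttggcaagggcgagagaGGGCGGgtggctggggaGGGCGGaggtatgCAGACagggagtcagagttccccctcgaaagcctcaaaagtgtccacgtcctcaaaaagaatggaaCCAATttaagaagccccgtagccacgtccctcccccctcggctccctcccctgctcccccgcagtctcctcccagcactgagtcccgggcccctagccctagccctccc
Ogn: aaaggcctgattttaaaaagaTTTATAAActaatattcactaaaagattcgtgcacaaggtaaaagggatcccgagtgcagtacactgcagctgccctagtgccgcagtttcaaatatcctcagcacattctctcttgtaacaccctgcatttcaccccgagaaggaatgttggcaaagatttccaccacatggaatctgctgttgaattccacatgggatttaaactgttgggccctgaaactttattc
Col3a1: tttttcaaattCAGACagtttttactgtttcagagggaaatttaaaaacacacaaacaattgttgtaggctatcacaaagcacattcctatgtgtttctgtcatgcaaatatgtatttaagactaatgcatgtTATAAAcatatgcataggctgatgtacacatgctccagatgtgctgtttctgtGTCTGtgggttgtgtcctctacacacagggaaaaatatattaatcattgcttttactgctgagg
CAGAC was found in the windows of Fmod (2 matches), Aebp1 (2 matches), Col3a1 (2 matches) and Col1a2 (1 match), and in 42.2% of all 32851 promoter windows of this length. The window of Col1a2 held CCAAT at position -109 from the start and GGGCGG 2 times. CCAAT was in 33.8% and GGGCGG in 32.7% of all windows. TATAAA, in 12.4% of all windows, was found in Col3a1 at position -117 and in Ogn, where a match on each strand overlaps the other. These matches describe the letters and not a bound site, and the 5 windows shared no motif of the 4.

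On the arrays as a whole, Ppt1 itself had a signal of 595 ± 29.3 in the wild type and 12.9 ± 7.66 in the knockout, and every sample matched its genotype label. Array medians lay between 43.2 and 46.1. The ratio of the 5′ to the 3′ control probe set of actin, a measure of RNA integrity, lay between 0.389 and 0.547. At 8 months it was 0.432 to 0.482 in the knockout and 0.501 to 0.525 in the wild type, without overlap. The same ratio of Gapdh was 1.22 to 1.25 and 1.26 to 1.35 at that age. The part of RNA integrity in the 8-month differences was not tested. The background of an array, taken as the 95th percentile of its bacterial control probe sets, was 9.24 to 19.2. In the matrix genes replicate 3 of the 8-month knockout stood closer to the wild type than the other 2 arrays of its group. Calls of brightest probe sets that rest on single arrays of this group are named with the results. For the other probe sets only the counts with an array left out are given, so their calls may rest on 1 array too.

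Most of the matrix genes were higher in the knockout, and the estimated difference was larger at 8 than at 3 months for 8 of the 10, a change that passed its own test for Col1a1. As the mean over the 3 ages, 15 of the 19 probe sets were higher and 0 lower at an adjusted p of 0.05, which makes 8 of the 10 genes by their brightest probe set. Over all tested probe sets, 6.62% were higher. The 10 genes were chosen with earlier results of these data known, so these shares are a description and no test of an excess. The median difference of the 19 was 0.51 on the scale of log2(signal + 16), on which all differences are given, against -0.013 for all probe sets. Aebp1 and Fmod had the largest differences of the 10 genes by their brightest probe sets, and Lum and Igfbp2 were the genes without a call. Without replicates 1 and 2 of the 8-month knockout 7 probe sets passed instead of 15, and Col1a1, Col3a1 and Igf2 were no longer called.

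At 3 months 0 of the 19 probe sets passed in limma's fit, against 0.681% of all probe sets higher, while 5 had an unadjusted p under 0.05, against 9.8% of all, and the median was 0.27. At 5 months 2 passed, both higher, 1456084_x_at of Fmod and 1450637_a_at of Aebp1, against 1.64% of all, with 11 at an unadjusted p under 0.05 (13.7% of all) and a median of 0.38. At 8 months 14 of the 19 passed, all higher, for 7 genes, against 5.74% of all, and the median reached 0.84. The 8-month count was 6 without knockout replicate 2 and 1, Col1a1, without replicates 1 and 2. The 5-month count was 0 without knockout replicate 1, knockout replicate 2 or wild-type replicate 3 of that age, 1 without knockout replicate 3 and 4 without replicate 3 of the 8-month knockout. At 3 months 1 probe set, 1415939_at of Fmod, passed without any 1 of the 8-month knockout arrays or without replicate 3 of the 5-month wild type. Arrays of other ages enter these tests through the shared fit.

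**Figure D1:**
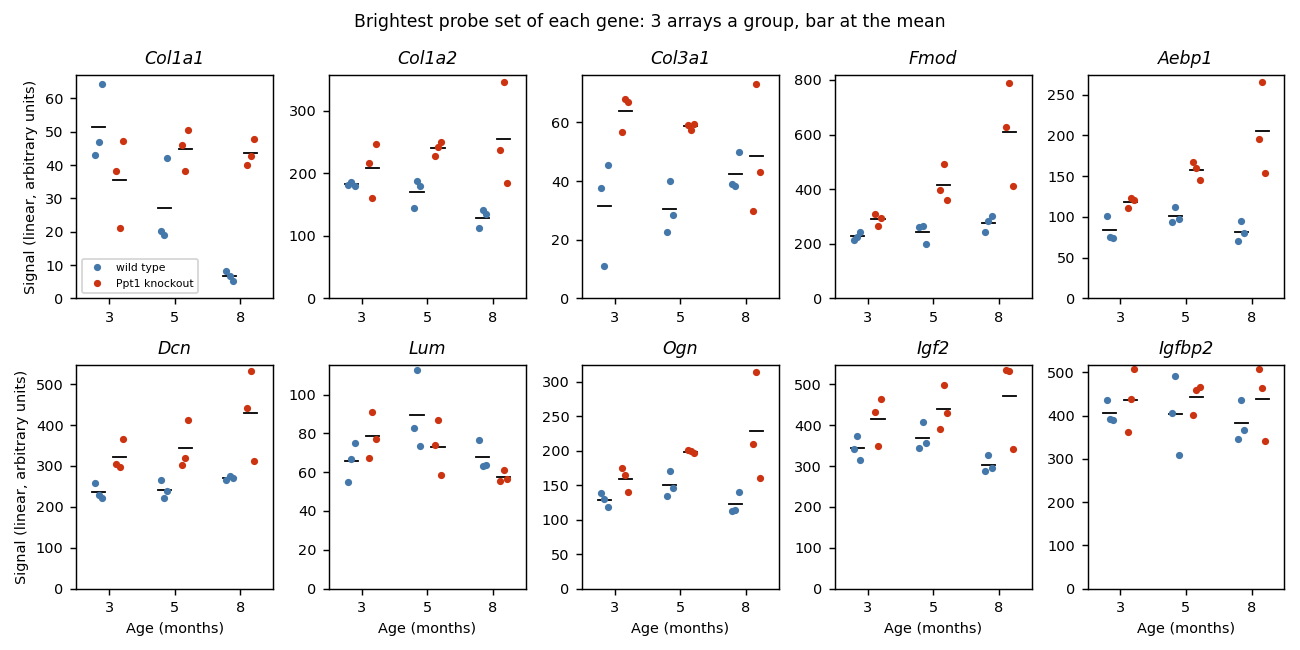
Signal (linear scale, arbitrary units) of the brightest probe set of each of the 10 genes against age in months, with 1 point for each of the 3 arrays of a group and a bar at the mean. In Aebp1, Dcn, Fmod and Ogn the knockout arrays lie above the wild-type arrays at each age, and in Col1a1 the 8-month wild-type arrays lie between 5.15 and 8.16.

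**Figure D2:**
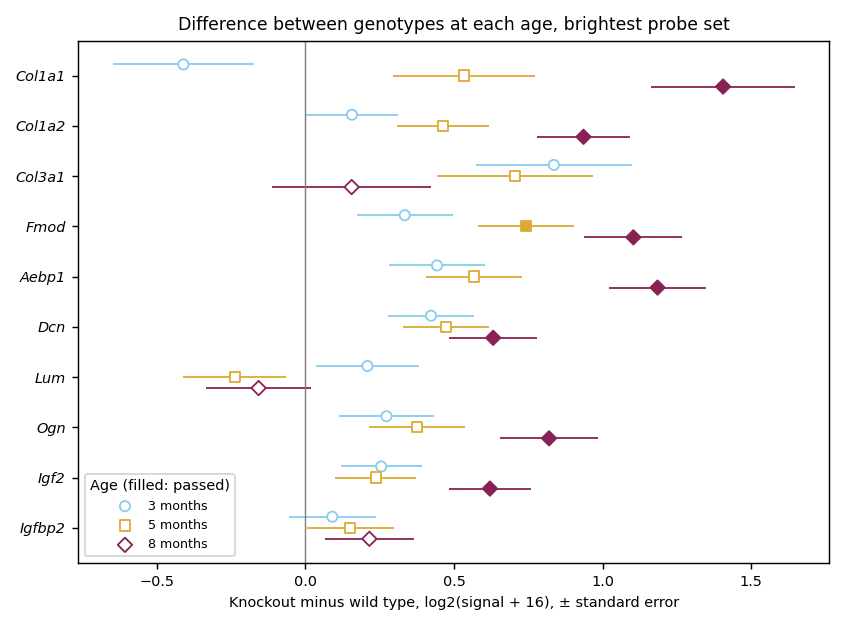
Difference between knockout and wild type on the scale of log2(signal + 16) for the brightest probe set of each gene, with its standard error, at 3 (circles), 5 (squares) and 8 months (diamonds). Filled symbols passed at an adjusted p of 0.05, which held for 7 genes at 8 months, for Fmod at 5 months and for 0 at 3 months.

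Col1a1 encodes the alpha-1 chain of type I collagen, the main fibril former of dura and bone, and its brighter probe set was the one member value that moved with age in the wild type. The 3 wild-type arrays read 43.1, 46.9 and 64.2 at 3 months, 20.2, 19.02 and 42.3 at 5 months and 8.16, 6.78 and 5.15 at 8 months. The knockout arrays read 38.2, 21.1 and 47.1 at 3 months, 46.004, 38.2 and 50.7 at 5 months and 40.2, 42.8 and 47.8 at 8 months. The 8-month knockout arrays lay within the range of the younger groups, while the 8-month wild-type arrays were all below their background, as was 1 of 3 at 5 months. The groups overlapped at 3 and 5 months and did not at 8 months, when the knockout was at least 3.45-fold higher than the background of the wild-type arrays.

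On the fitted scale, this probe set fell by 1.56 ± 0.24 (standard error) from 3 to 8 months in the wild type (adjusted p = 0.015), where 0.0074% of all probe sets were lower. It did not pass in the knockout (0.26 ± 0.24, adjusted p = 0.603). The genotype difference went from -0.41 ± 0.24 at 3 months (adjusted p = 0.619) to 1.40 ± 0.24 at 8 months (adjusted p = 0.000655). The change of that difference was 1.82 ± 0.34 (adjusted p = 0.0167), the 1 member probe set of 19 to pass this test, against 0.718% of all. The wild-type decline and this change share the same wild-type arrays. The adjusted p of the wild-type decline was 0.0643 to 0.160 without any 1 of the 3- or 8-month wild-type arrays, with log2 values of -1.65 to -1.43. It was 0.052 with no filter on low values. With pseudocounts of 1 and 64 the decline was -2.77 and -0.70, the 8-month difference 2.55 and 0.61 and the change of the difference 3.13 and 0.83, each still past its threshold.

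The other Col1a1 probe set showed no such decline. It read 16.6, 23.2 and 21.7 at 3 months and 18.8, 55.3 and 21.7 at 8 months in the wild type. In the knockout it read 21.4, 37.2 and 29.8 at 3 months and 32.4, 29.2 and 21.2 at 8 months. Its groups overlapped at each age, and its mean difference was 0.20 ± 0.17 (adjusted p = 0.524). The 2 probe sets of this gene therefore disagree, and both are dim, with 44.3% and 41.9% of the other probe sets below their means.

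**Figure D3:**
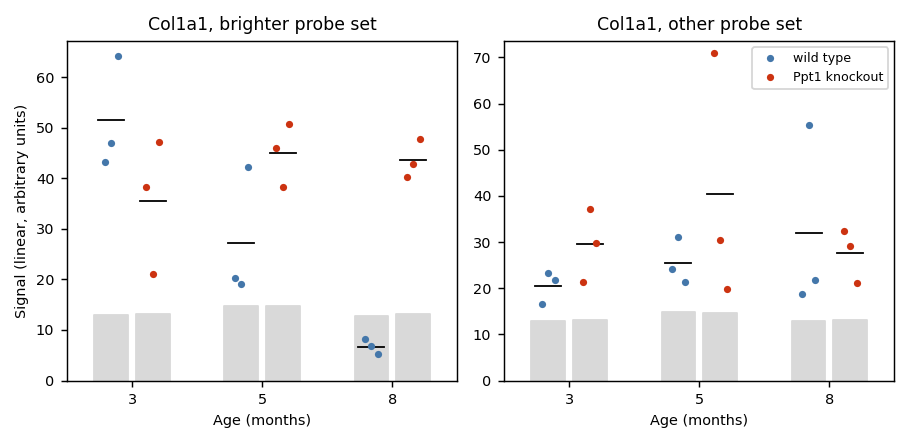
Signal (linear scale, arbitrary units) of the 2 tested Col1a1 probe sets against age in months, 3 arrays a group with a bar at the mean, and in grey the mean background of the group's arrays. In the brighter probe set the 8-month wild type lies under its background at 6.70 ± 1.51 (SD, n = 3), and in the other probe set the same arrays read 18.8 to 55.3.

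Col1a2 encodes the alpha-2 chain that joins 2 alpha-1 chains in the type I collagen triple helix. Its brightest probe set read 182, 186 and 179 in the wild type and 217, 161 and 247 in the knockout at 3 months. At 5 months the readings were 145, 188 and 180.2 against 228, 243 and 249.6, and at 8 months 112, 141 and 135 against 237, 346 and 184. The genotypes overlapped at 3 months and did not at 5 or 8 months. The difference was 0.94 ± 0.16 at 8 months (adjusted p = 0.000517), or 1.91-fold on this scale, and 0.52 ± 0.09 over all ages (adjusted p = 0.000473). The second probe set gave 0.84 ± 0.20 at 8 months (adjusted p = 0.00882), so both probe sets rose. The wild type had its lowest Col1a2 mean at 8 months, 129 ± 15.6 against 183 ± 3.44 at 3 months, a difference of -0.46 ± 0.15 that did not pass (adjusted p = 0.531).

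Col3a1 encodes type III collagen, which forms thinner fibrils with type I collagen in vessel walls and leptomeninges. Its readings at 3 months were 37.7, 10.9 and 45.6 in the wild type and 56.6, 68.1 and 66.8 in the knockout. At 5 months they were 22.6, 40.01 and 28.4 against 59.1, 57.3 and 59.6, and at 8 months 39.01, 38.3 and 49.995 against 29.8, 73.2 and 42.9. One 3-month wild-type array lay at background. The knockout lay above the wild type at 3 and 5 months without overlap, and at 8 months the wild-type arrays lay inside the range of the knockout arrays. The mean over ages was 0.57 ± 0.15 (adjusted p = 0.0161). No single age passed, with 0.84 ± 0.26 at 3 months (adjusted p = 0.181) and 0.16 ± 0.27 at 8 months (adjusted p = 0.765). The mean over ages was 0.31 with a pseudocount of 64. Without replicate 2 of the 8-month knockout the 8-month difference was -0.13, and the mean over ages had an adjusted p of 0.0619. The change of the genotype difference from 3 to 8 months was -0.68 ± 0.37 for Col3a1, opposite in sign to that of Col1a1, and did not pass (adjusted p = 0.424).

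Aebp1 encodes a secreted protein, also known as ACLP, that binds fibrillar collagen. It had the largest difference among the brightest probe sets over all ages, 0.73 ± 0.093 (adjusted p = 1.13e-05). Readings at 3 months were 101, 75.6 and 73.9 in the wild type and 111, 124 and 120.3 in the knockout. At 5 months they were 94.3, 113 and 97.9 against 168, 161 and 146, and at 8 months 70.2, 94.9 and 80.4 against 196, 265 and 154. The 9 wild-type arrays lay between 70.2 and 113, each knockout group lay above the wild type of its age, and 8 of 9 knockout arrays exceeded every wild-type array. At 8 months the difference was 1.18 ± 0.16, or 2.27-fold (adjusted p = 6.08e-05).

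Within the knockout, Aebp1 rose by 0.72 ± 0.16 from 3 to 8 months (adjusted p = 0.0135), and in the wild type the estimate was -0.023 ± 0.16 (adjusted p = 0.991). The test of that contrast between genotypes gave 0.74 ± 0.23 and did not pass (adjusted p = 0.12). The second probe set rose too, by 1.07 ± 0.30 at 8 months (adjusted p = 0.0232) and by 1.25 ± 0.30 from 3 to 8 months in the knockout (adjusted p = 0.018). The rise with age of the brighter probe set had an adjusted p of 0.185 without 8-month knockout replicate 2 and of 0.0704 without 3-month knockout replicate 1.

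Fmod encodes fibromodulin, a keratan sulfate proteoglycan that binds type I collagen and slows fibril thickening. Its brightest probe set, 1456084_x_at, read 213, 225 and 242 at 3 months, 262, 264 and 200.05 at 5 months and 243, 283 and 300.2 at 8 months in the wild type. The knockout read 309.98, 265 and 296 at 3 months, 396, 493 and 359.8 at 5 months and 629, 790.4 and 411 at 8 months. Each knockout group lay above the wild type of its age, and the 8-month knockout held the widest spread. The difference was 0.33 ± 0.16 at 3 months (adjusted p = 0.514), 0.74 ± 0.16 at 5 months (adjusted p = 0.0122) and 1.10 ± 0.16 at 8 months (adjusted p = 0.00015). The last is 2.15-fold. Without both 8-month knockout replicates 1 and 2 it was 0.57 and did not pass (adjusted p = 0.118).

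Within the knockout, the Fmod signal rose from 290.3 ± 23.2 at 3 months to 610.2 ± 190.4 at 8 months (mean ± SD, n = 3), a change of 1.03 ± 0.16 (adjusted p = 0.00103). It was 1 of 2 genes, with Aebp1, to pass with age in the knockout by the brightest probe set. In all, 5 of the 19 probe sets passed there, 3 of Fmod and 2 of Aebp1, against 2.9% of all probe sets. The count was 13 without 8-month knockout replicate 3, 3 without replicate 1, 1 without replicate 2, and 2 without 3-month knockout replicate 1 or 3.

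Fmod has 6 tested probe sets, and 5 of them passed over all ages and at 8 months. Of these the one with a plain name, 1415939_at, differed by 0.61 ± 0.089 over all ages (adjusted p = 6.44e-05) and came closest to passing at 3 months (0.62 ± 0.15, adjusted p = 0.0552). The others carry the suffix that Affymetrix gives to probe sets that may also match other transcripts. The probe set without a call, 1438966_x_at, varied most among replicates, with 32.8, 155 and 45.5 in the 3-month wild type, and its difference was 0.32 ± 0.24 (adjusted p = 0.44).

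Dcn encodes decorin, the dermatan sulfate proteoglycan that coats type I collagen and binds TGF-beta. It was the 1 probe set of 19 in which every knockout array exceeded every wild-type array, whatever the age, against 1.13% of all probe sets. Readings were 259, 229 and 221 against 305, 298 and 365 at 3 months. At 5 months they were 266, 222 and 239 against 301, 319 and 412, and at 8 months 266, 276 and 269.7 against 442, 532 and 311, wild type first. The lowest knockout array of all ages stood above the highest wild-type array, and the spread was widest in the 8-month knockout. The mean difference was 0.51 ± 0.084 (adjusted p = 0.000271), or 1.42-fold, with 0.63 ± 0.15 at 8 months (adjusted p = 0.00748). The estimated change of its genotype difference from 3 to 8 months, 0.21 ± 0.21, did not pass (adjusted p = 0.697). Without 8-month knockout replicate 2 the 8-month difference had an adjusted p of 0.122. With only the 8-month arrays in limma's fit and no sex term it was 0.60 and did not pass (adjusted p = 0.0626).

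Ogn encodes osteoglycin, also called mimecan, a small proteoglycan of connective tissue that influences collagen fibril formation. Its readings were 138, 130.2 and 119 in the wild type and 175, 164 and 139.7 in the knockout at 3 months. At 5 months they were 135, 169.9 and 146 against 201, 199 and 196, and at 8 months 112, 114 and 140.4 against 209.9, 315 and 159.9. The genotypes did not overlap at any age. The difference was 0.49 ± 0.094 over all ages (adjusted p = 0.00124) and 0.82 ± 0.16 at 8 months (adjusted p = 0.00243). The other probe set gave 0.80 ± 0.17 at 8 months (adjusted p = 0.0037). Without 8-month knockout replicate 2 the brighter probe set did not pass at that age (0.54, adjusted p = 0.0586). Nor did it with only the 8-month arrays in limma's fit and no sex term (0.78, adjusted p = 0.0603).

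Lum encodes lumican, a keratan sulfate proteoglycan of cornea, skin and meninges, and it passed no test. The wild type read 55.1, 66.7 and 75.2 at 3 months, 82.6, 112 and 73.6 at 5 months and 76.7, 63.4 and 63.4 at 8 months. The knockout read 67.3, 90.9 and 76.9 at 3 months, 74.1, 86.7 and 58.8 at 5 months and 55.4, 60.95 and 56.3 at 8 months. The genotypes overlapped at 3 and 5 months, and at 8 months all 3 knockout arrays lay below the 3 wild-type arrays. The difference was -0.063 ± 0.10 over all ages (adjusted p = 0.754) and -0.16 ± 0.18 at 8 months (adjusted p = 0.624). Lum is the gene next to Dcn in the RefSeq gene order, so these neighbours were called differently, and the difference between them was not tested.

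Igf2 encodes insulin-like growth factor 2, a secreted growth factor that is expressed from the paternal copy in most tissues and from both in choroid plexus and leptomeninges. Its brightest probe set read 343, 373 and 315 against 431, 349 and 465 at 3 months, wild type first. At 5 months the readings were 344, 409 and 357 against 389.7, 499.6 and 431, and at 8 months 289, 327 and 294 against 536, 534 and 342. The genotypes overlapped at 3 and 5 months and were apart at 8 months, when knockout replicate 3 stood just above the wild-type arrays. The difference was 0.37 ± 0.079 over all ages (adjusted p = 0.00313) and 0.62 ± 0.14 at 8 months (adjusted p = 0.00566). The wild type had its lowest Igf2 mean at 8 months, 303 ± 20.5. Without 8-month knockout replicate 2 the 8-month difference was 0.53 and did not pass (adjusted p = 0.0666). With only the 8-month arrays in limma's fit and no sex term it was 0.58 and did not pass (adjusted p = 0.0648).

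Igfbp2 encodes a binding protein that holds insulin-like growth factors in the extracellular fluid, and it is made by choroid plexus and astrocytes as well as by meninges. Its 9 wild-type arrays ran from 309.8 to 492 with a median of 392. The 9 knockout arrays ran from 342 to 508 with a median of 459. The genotypes overlapped at every age. The difference was 0.15 ± 0.085 over all ages (adjusted p = 0.281) and at most 0.21 ± 0.15 at a single age, at 8 months (adjusted p = 0.393).

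The remaining 5 probe sets were too dim to be tested. The dim Dcn probe set lay at or below background on all 18 arrays, and those of Col1a2, Col3a1 and Aebp1 on 14, 13 and 13 arrays. The dim Igf2 probe set, 1415931_at, lay at or below background on 13 arrays and read 1.77, 1.75 and 1.77 in the 8-month wild type and 38.7, 17.3 and 14.2 in the 8-month knockout. The knockout signal was at least 1.68-fold higher there, with 1 of its 3 arrays at background. The dim Col3a1 probe set, 1427884_at, read 3.39, 9.09 and 2.62 in the 8-month wild type and 11.6, 24.5 and 17.3 in the 8-month knockout. That is at least 1.35-fold higher, with 1 of 3 knockout arrays at background, while at 3 months all 3 knockout arrays lay at background. For the dim Col1a2 probe set the bound was 1.3-fold at 3 months, with 2 of 3 knockout arrays at background. These probe sets enter no count above.

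Counted by arrays that do not overlap, with every knockout array above every wild-type array of its age, 7 of the 19 probe sets were apart at 3 months, against 9.83% of all tested probe sets. At 5 months 9 were apart, against 10.2%, and at 8 months 13, against 11.7%. By the brightest probe set these were 5, 6 and 7 of the 10 genes. Aebp1, Fmod, Dcn and Ogn were apart at each of the 3 ages.

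Ordered by the mean signal of the 6 groups, the 8-month wild type was lowest for 6 genes (Col1a1, Col1a2, Aebp1, Ogn, Igf2 and Igfbp2) and the 8-month knockout highest for 6 (Col1a2, Fmod, Aebp1, Dcn, Ogn and Igf2). Of the 50 pairs of groups that are neighbours in these orders, 44 overlapped in range and 6 did not. In Fmod, Aebp1 and Ogn the gap lay between the 3-month and the 5-month knockout. In Dcn it lay between the 8-month wild type and the 3-month knockout, and in Col1a1 and Col1a2 between the 8-month and the 5-month wild type. In the other 4 genes all neighbours overlapped.

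In limma's fit the remaining contrasts over age gave 0 calls among the 19 probe sets. For 5 against 3 months in the knockout, 0.311% of all probe sets were called in either direction, and 3 members had an unadjusted p under 0.05, against 12.2% of all. For 8 against 5 months in the knockout 0.0037% of all were called, and 7 members had an unadjusted p under 0.05, against 14.0% of all. In the wild type 0% of all were called for either step, and 2 members had an unadjusted p under 0.05 for each, against 4.02% of all for 5 against 3 months and 8.11% for 8 against 5 months. The change of the genotype difference had an unadjusted p under 0.05 in 2 probe sets from 3 to 5 months (5.96% of all) and in 6 from 5 to 8 months (11.4% of all), and 0% of all were called in either. For male minus female 0 of the 19 passed after adjustment, against 0.0703% of all. An unadjusted p under 0.05 was found in 2, against 3.19% of all. The difference was above 0 in 3 of the 19 probe sets. By the brightest probe set it was above 0 in 0 of the 10 genes. The median of the 19 was -0.12, against -3.4e-05 for all probe sets.

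The 3 arrays of the 8-month knockout did not read alike. Replicates 1 and 3 were male and replicate 2 was female. Without replicate 2 this group holds males only, so results without it change the sexes of the group too. The part of sex in those results was not tested. Replicate 3 was the lowest of the group in 16 of the 19 probe sets and in 7 of the 10 genes. Set against the mean of the 8-month wild type, the median over the 19 probe sets was 0.80 in replicate 1, 1.12 in replicate 2 and 0.35 in replicate 3. In the brighter Col1a1 probe set, Col3a1 and Lum replicate 1 was lowest, and in that Col1a1 probe set replicate 3 was highest. Without replicate 3, the change of the genotype difference from 3 to 8 months passed (limma) in 9 probe sets, of Col1a1, Col1a2, Aebp1, Fmod, Ogn and Igf2. Without replicates 1 and 2 it passed in 0, with the Col1a1 value at 1.94 (adjusted p = 0.0662).

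**Figure D4:**
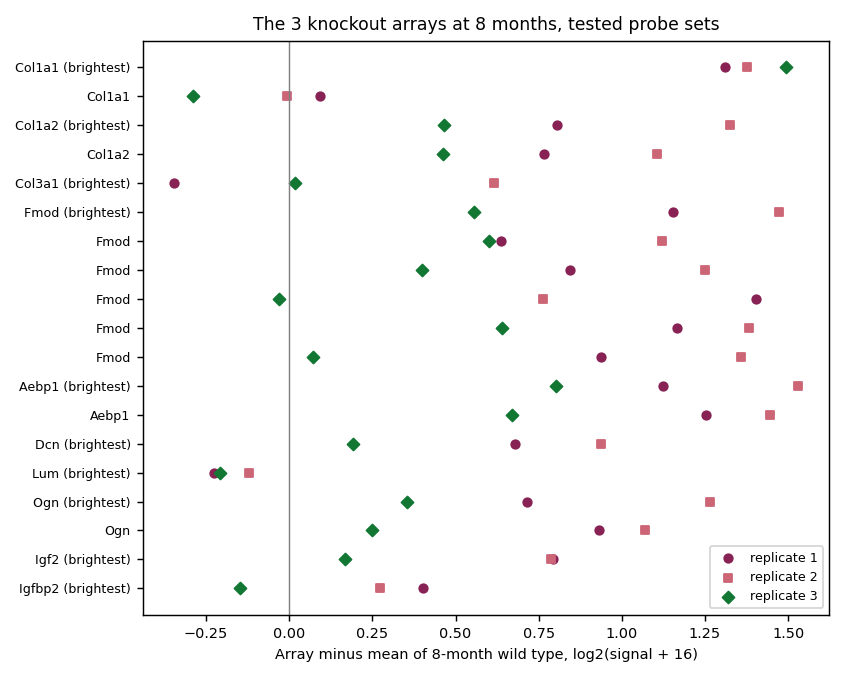
Difference of each 8-month knockout array from the mean of the 8-month wild type on the scale of log2(signal + 16), for the 19 tested probe sets. Replicate 3 (diamonds) is lowest in 16 of the 19, and its median is 0.35 against 0.80 and 1.12 in replicates 1 and 2.

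Beyond the 10 genes, some genes on lists of other meningeal markers and matrix pathways were higher in the knockout. Which cells made their RNA was not tested. Of 24 tested markers of meningeal fibroblasts that are not among the 10, 11 were higher and 0 lower over all ages, with a median of 0.26, against 8.39% of 12496 genes higher, 6.43% lower and a median of -0.0086. At 8 months 9 of the 24 markers were higher and 0 lower, against 6.97% of the 12496 genes higher and 5.95% lower. The lists, too, were chosen with earlier results of these data known. Serping1, an inhibitor of complement C1, was at 111 ± 14.9 in the 9 wild-type and 246 ± 103 in the 9 knockout arrays (0.98 ± 0.098, adjusted p = 3.84e-07). Nupr1, a stress-induced nuclear protein, differed by 0.78 ± 0.095 (adjusted p = 5.61e-06), and Slc6a20a, a proline transporter, by 0.62 ± 0.092 (adjusted p = 7.23e-05). Slc6a13, a GABA and taurine transporter of leptomeningeal fibroblasts, did not pass (0.37 ± 0.14, adjusted p = 0.0835).

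Among the other fibrillar and fibril-associated collagens 3 of 12 were higher and 1 lower over all ages, with a median of 0.16. Beside each count of this paragraph stand 8.39% higher and 6.43% lower over all 12496 genes. The third gene that rose was Col11a2. Col9a3 and Col16a1 rose by 0.58 ± 0.14 (adjusted p = 0.0067) and 0.31 ± 0.09 (adjusted p = 0.028), and Col19a1 was at -0.33 ± 0.072 (adjusted p = 0.00379). Of 14 network, basement membrane and other collagens 2 were higher, Col4a5 (0.67 ± 0.12) and Col4a1 (0.37 ± 0.093) of vascular basement membrane. Col25a1, which neurons express, was the 1 lower (-0.24 ± 0.073, adjusted p = 0.0313), and the median of the 14 was 0.015. Of 4 other small leucine-rich proteoglycans 2 rose, Bgn (biglycan, 0.33 ± 0.086, adjusted p = 0.0127) and Prelp (0.29 ± 0.096, adjusted p = 0.0483), the latter the neighbour of Fmod in the gene order. Collagen synthesis and cross-linking genes rose in 4 of 24, which were Pcolce, Ppib (0.29 ± 0.047) and P4hb (0.23 ± 0.052), the last 2 of which help collagen fold, and the lysyl hydroxylase Plod2 (0.51 ± 0.13, adjusted p = 0.00872). No gene of that list fell.

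Over all ages, where 8.39% of 12496 genes were higher and 6.43% lower, elastic fibre and adhesive matrix genes were higher in 4 of 20. These were Ecm1, Tgfbi (0.38 ± 0.11), and the fibulins Fbln5 (0.63 ± 0.17) and Efemp1 (0.71 ± 0.092, adjusted p = 1.22e-05). Matrix proteases and their inhibitors were higher in 6 of 16 and lower in 1 (Mmp17) over all ages. At 8 months 8 of the 16 were higher, against 6.97% of all genes. The protease inhibitor Timp1 was at 22.6 ± 9.29 in the 9 wild-type and 73.7 ± 33.98 in the 9 knockout arrays (1.17 ± 0.15, adjusted p = 1.01e-05), and Timp3 rose by 0.39 ± 0.054 (adjusted p = 3.48e-05). The proteoglycan-cleaving Adamts1 rose by 0.49 ± 0.082 (adjusted p = 0.000275). TGF-beta signalling genes were higher in 6 of 23, with Tgfbr2 and Tgfbr1, the signalling receptors, at 0.41 ± 0.074 and 0.42 ± 0.084, and 0 fell.

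In the insulin-like growth factor system 4 of 14 other genes were higher and 0 lower over all ages, the growth factor Igf1 among them. Of all 12496 genes 8.39% were higher and 6.43% lower. Igfbp5, which lies next to Igfbp2 in the gene order, was at 854 ± 120.2 in the 9 wild-type and 1573 ± 615 in the 9 knockout arrays, a difference of 0.81 ± 0.076 (adjusted p = 1.47e-07). Igfbp7, made by vessels, rose by 0.38 ± 0.077 (adjusted p = 0.00208) and the insulin receptor substrate Irs2 by 0.47 ± 0.11 (adjusted p = 0.00813). Whether these differences are larger than that of Igfbp2 was not tested.

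Markers of other cell types differed between the same groups. Beside the counts over all ages stand 8.39% higher and 6.43% lower of all 12496 genes. Of 15 microglia and macrophage markers 11 were higher and 1 (P2ry12) lower over all ages, with a median of 1.23, and their summed signal was 5298 to 5542 in the 8-month wild type and 8753 to 15067 in the 8-month knockout. Of 14 astrocyte markers 11 were higher and 0 lower, with a median of 0.29, and the sums at 8 months were 23130.0 to 23949 and 33257 to 41697. Mural cells of vessels rose in 3 of 12 markers (Vtn, Pdgfrb and Notch3), with sums of 2336 to 2482 and 2526 to 3312, and border macrophages in 2 of 8 (Ms4a7 and Mrc1), with sums of 321 to 394 and 497 to 779. Of 9 ependyma markers 2 were higher over all ages (Cfap126 and Foxj1). At 8 months 0 of the 9 were, against 6.97% of all genes, and the sums overlapped at 458 to 491 and 469 to 592. The other meningeal markers summed to 11515 to 13060.0 in the 8-month wild type and 14963 to 17059 in the 8-month knockout, of which Ptgds, the brightest, gave 68.7% of the level over all arrays, and without it to 3536 to 3986 and 4142 to 6360.0.

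Choroid plexus epithelium, the other large source of Igf2 and Igfbp2, rose or fell in 0 of 12 markers by limma, with 0 at an unadjusted p under 0.05, and Ttr, its most abundant transcript, was at -0.015 ± 0.047 (adjusted p = 0.886). The choroid plexus sums at 8 months were 12719 to 13891 in the wild type and 13479 to 14317 in the knockout. Ttr gave 92.8% of this level over all arrays, and without it the sums were 896 to 999 and 863 to 1021. Of 13 endothelial markers 1 (Cldn5) was higher over all ages, which is 7.69%, against 8.39% of all 12496 genes. The endothelial sums at 8 months overlapped, at 2089 to 2189 in the wild type and 1876 to 2569 in the knockout. Of 10 neuronal markers 3 were lower (Slc17a7, Syt1 and Camk2a), against 6.43% of all genes lower. The neuronal sums at 8 months were 35122 to 35808 and 28603 to 34459. Oligodendrocytes passed in 0 of 7 over all ages (0 at an unadjusted p under 0.05). At 8 months 2 of the 7 were higher (Cldn11 and Mobp), against 6.97% of all genes, with sums of 21657 to 22813 and 24045 to 26004. Blood, with 1 tested gene, and the 5 tested bone, cartilage and inner ear genes had 0 calls by limma and 0 at an unadjusted p under 0.05, with sums of 60.6 to 102 and 33.1 to 113 for blood and 607 to 663 and 615 to 683 for bone and ear. No marker of any list lay at background on all 18 arrays. The part of these cell types in the differences of the matrix genes was not tested.

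**Figure D5:**
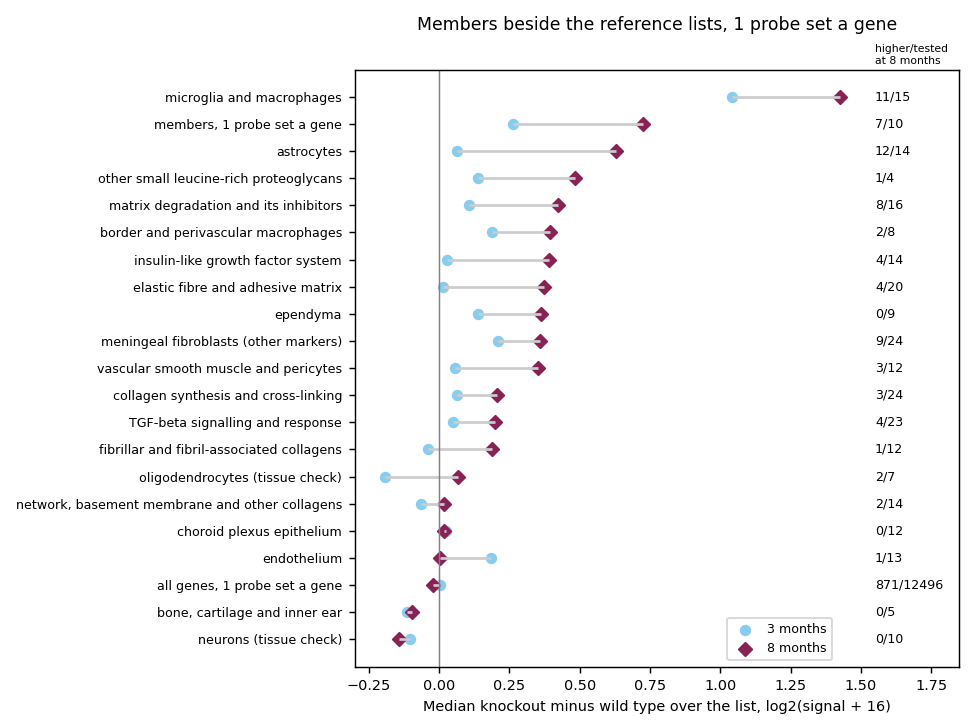
Median difference between knockout and wild type on the scale of log2(signal + 16) over each gene list, 1 probe set a gene, at 3 months (circles) and 8 months (diamonds), with the number higher of the number tested at 8 months at the right. The 10 matrix genes ("members") went from 0.26 to 0.73, the other meningeal fibroblast markers from 0.21 to 0.36, and all 12496 genes from 0.0016 to -0.022.

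Most pairs of the matrix genes were positively correlated over all arrays. Over the 18 arrays, which share one scaling, the median Pearson r of the 45 pairs of genes was 0.48, with the highest between Aebp1 and Ogn (0.93) and the lowest between Dcn and Lum (-0.43). Over deviations from the 6 group means the median was 0.34, and over these deviations without the 8-month knockout arrays 0.12. Over the 18 arrays as they are, Aebp1 had the highest median r with the 9 others (0.80) and Lum the lowest (-0.19), and over the deviations Col1a2 the highest (0.65) and Col1a1 the lowest (-0.29). The r of Col1a1 with Col1a2 was 0.71 over the arrays and 0.28 over the deviations, and that with Col3a1 0.062 and 0.058.

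Summed marker levels were also correlated with the mean standardised level of the 10 genes across the 18 arrays. For mural cells, microglia, border macrophages, astrocytes and meninges r was 0.88, 0.88, 0.84, 0.82 and 0.81. Over deviations from the 6 group means r was 0.82, 0.86, 0.66, 0.64 and 0.71, in that order. Ependyma had 0.70 over the arrays and 0.54 over the deviations. The sums of choroid plexus, 92.8% of which was Ttr, and of neurons had r of 0.064 and -0.79. Over the deviations these were 0.14 and -0.55. Of the single genes most like that mean, the closest were Lxn (latexin, a carboxypeptidase inhibitor, r = 0.93), Rbpj (the transcription factor of Notch signalling, r = 0.92), Fermt3 (0.91), S100a1 (0.91), Cyp7b1 (0.90), Cyba (0.90), C1qc (0.90) and Itgb2 (0.90). The most opposed were Kif3a (-0.92), Cacnb2 (-0.91) and Matk (-0.88). These r values describe 18 arrays of 6 groups and carry no test.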

How the data were processed

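RNA of 18 samples was measured on 1 Affymetrix mouse array each. The authors deposited 1 linear intensity per probe set and array. Software and scaling: not given in the sources used here. Without the lowest and highest 2% of values, the mean of each array lay between 149.964 and 149.966. The deposited arrays had therefore been scaled to 1 common mean. Array medians of the deposited intensities spanned 0.094 (log2), under the limit of 0.5, so no further scaling was done. Replicates were numbered in the order of the sample records, and 0 pairs of arrays held identical values. The number of arrays limits precision.

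Values were analysed as log2(signal + 16), which understates changes of dim genes. Left out were 64 control probe sets and, of the others, the 40% dimmest by mean log2 signal (under 5.36). A linear model of the 6 groups with sex as a term was fitted across the 18 arrays (limma 3.58.1, R 4.3.3, eBayes with a variance trend), two-sided, with Benjamini-Hochberg adjustment over 27022 probe sets and a threshold of 0.05, and was tested on simulated data. Errors are SD over arrays for signals and the standard error for log2 differences. A group is at background where all its arrays are at or below the 95th percentile of 27 bacterial control probe sets. A fold is then a lower bound, taken between means of log2 signals (geometric means): the brighter group against the background or the signal, whichever is higher on an array. Each gene is led by its brightest probe set.

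Genes outside the 10 were named by rule: up to 3 of each list with the smallest p over all ages among those that passed, the first marker of each marker list, and the 8 genes with the highest and 3 with the lowest correlation. Others named to complete a count were chosen after their values were seen. Sequences are from the RefSeq tables of GRCm38.p6. Alternatives were other normalization, pseudocount, filter, sex term, variance model, array weights, samples fitted together, 1 probe set per gene and arrays left out. The fit of only the groups compared also had no sex term. The 10 genes and the lists were chosen with earlier results of these data known.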

Additional observations from a re-analysis of the deposited data

Results flagged for a closer look

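The genotype difference of the brighter Col1a1 probe set was larger at 8 than at 3 months by 1.82 on the log2 scale, and the interaction term of the linear model passed (limma, adjusted p = 0.0167). The 3 wild-type arrays of 8 months lay at background in this probe set, and the other Col1a1 probe set gave -0.36 ± 0.43 for the same test (adjusted p = 0.763). Without a trend in the variance model the adjusted p of the brighter probe set was 0.0736.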

How the results depend on the processing

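No member probe set passed as lower in the knockout in any of the 4 comparisons of genotype, under each of the 31 or 32 settings run. Some estimates were below 0 without passing, as for Lum over all ages. In what follows, counts of the main fit are out of 19 member probe sets, and counts with 1 probe set per gene are out of 10. A different filter also changes the number tested. The number higher over all ages, 15, was 8 with 1 probe set per gene, 7 without both 8-month knockout replicates 1 and 2, and 12 to 15 with 1 array left out. The number at 3 months, 0, was 1 with a pseudocount of 1, a filter of the lowest 60%, array weights or without those 2 replicates, 2 with only the groups compared in the fit, and 0 to 1 with 1 array left out. The number at 5 months, 2, was 1 with a pseudocount of 1, no filter, the 60% filter or 1 probe set per gene, 0 without the variance trend, 4 with array weights, 5 without the 2 replicates and 0 to 4 with 1 array left out. The number at 8 months, 14, was 7 with 1 probe set per gene or only the groups compared, 1 without the 2 replicates and 6 to 14 with 1 array left out. The number with a larger difference at 8 than at 3 months, 1, was 0 with the 60% filter, which leaves Col1a1 out, without the variance trend or without the 2 replicates, 5 with array weights and 1 to 9 with 1 array left out. The number higher at 8 than at 3 months in the knockout, 5, was 9 with array weights, 2 with 1 probe set per gene, 3 with only the groups compared, 0 without the 2 replicates and 1 to 13 with 1 array left out. The number lower at 8 months in the wild type, 1, was 0 with no filter, the 60% filter or no variance trend and 0 to 1 with 1 array left out. Signs turned for Col3a1 at 8 months (-0.13 to 0.34 with 1 array left out, the former without knockout replicate 2) and for Igfbp2 at 3 months (-0.0067 to 0.20, the former without knockout replicate 3), 5 months (-0.046 to 0.29, the former without wild-type replicate 3) and 8 months (-0.073 without knockout replicates 1 and 2). Except where named, the cause was not tested. Taking in probe sets with several symbols gave no value, since 0 of them name a member. No paired analysis was possible because the replicate numbers were given in record order and pair no samples. Signals under about the background of 9.24 to 19.2 carry no order.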
